A study of Homo sapiens with 15 samples.

Results

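Earlier work reported the 10 genes API5, SMAD4, TPD52, MBD2, AP2M1, CDC42, CXCR4, PEBP1, HOXD10 and TRIB1 as targets of the microRNA miR-224, and their RNA was followed here in prostate cancer cells given a miR-224 mimic. All 10 were measured among the 18377 genes of the array, each by 1 feature that carries its symbol alone. API5, SMAD4, TPD52, MBD2 and AP2M1 were lower with the miR-224 mimic than with scrambled mimic and than in untransfected cells, in both cell lines. CXCR4, PEBP1, HOXD10 and TRIB1 passed no test of miR-224 in either direction, and CDC42 was lower in 1 of the 6 comparisons of miR-224. The mean levels of CXCR4 and HOXD10 were under percentile 20 of all genes in both lines, which leaves little room for a fall.

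A microRNA guides an Argonaute protein to messenger RNAs that pair with it, most often in the 3′ untranslated region and through the seed, a short run of bases near the microRNA's 5′ end. Pairing lowers the amount of the messenger RNA, its translation, or both, so that a reported target may change as protein with little change in RNA. The miR-224 and miR-452 genes lie in introns of GABRE, and this locus is often silenced by DNA methylation in prostate cancer.

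Total RNA was hybridised to 15 arrays of the Affymetrix Human Gene 1.0 ST type. PC3, a line from a bone metastasis of prostate cancer, gave 8 of them, and DU145, a line from a brain metastasis, gave 7. Cells received a synthetic mimic of miR-224, a synthetic mimic of miR-452 or a scrambled mimic, each at 20 nM and delivered with Lipofectamine 2000, or were left untransfected. RNA was taken at 48 h. Each group had 2 arrays except DU145 with scrambled mimic, which had 1, because the authors left another out for bad performance. Each line stands for 1 patient's tumour, all mimic groups share a transfection reagent that untransfected cells lack, and the level each mimic reached in the cells was not analysed here. The labels do not say whether replicate arrays came from separate cultures, so the spread behind the p-values is that of these arrays alone and may be technical.

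The microRNA sequences are shown because they are what separates the mimic groups. The labels do not say which arm of miR-224 or miR-452 the mimic supplied, so both arms are given, from RefSeq on GRCh38.p14, 5′ to 3′, with the seed (bases 2 to 8) in capitals.
hsa-miR-224-5p: uCAAGUCAcuagugguuccguuuag
hsa-miR-224-3p: aAAAUGGUgcccuagugacuaca
hsa-miR-452-5p: aACUGUUUgcagaggaaacuga
hsa-miR-452-3p: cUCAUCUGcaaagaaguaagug
All are on the minus strand of chromosome X, miR-224-5p at chrX:151958628-151958652 and miR-452-5p at chrX:151959678-151959699. No other mature microRNA in the RefSeq table has the seed of miR-224-5p, and 2 others, hsa-miR-4676-3p and hsa-miR-892c-3p, have the seed of miR-452-5p. The seeds of miR-224 and miR-452 differ from each other. A match of the seed in the members' untranslated regions was not analysed here.

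Levels are the authors' log2 values, and a difference of 1 on this scale is a 2-fold difference. Values ran from 4.49 to 14.18. Medians of single arrays were 6.94 to 7.05 for PC3 and 6.51 to 6.67 for DU145, and arrays of the same group correlated with r between 0.992 and 0.998 over all features. The lines were normalized separately, so levels are compared within a line. The keratins KRT8, KRT18 and KRT19 lay between 10.01 and 12.17 in both lines, whereas the leukocyte and endothelial markers lay between 4.96 and 6.66 and the fibroblast collagens between 6.28 and 8.63. The epithelial markers EPCAM and CDH1 lay lower than the keratins and overlapped the collagens. EPCAM ran from 6.85 to 9.01 in PC3 and from 7.27 to 9.07 in DU145, and CDH1 from 6.73 to 7.30 and from 8.38 to 8.93. The prostate luminal markers KLK3 and KLK2 lay between 5.59 and 6.82. No leukocyte, endothelial or fibroblast marker of these passed a test of miR-224. The epithelial adhesion gene EPCAM was lower with miR-224 than with scrambled mimic, by a log2 change of -0.50 ± 0.13 in PC3 (adjusted p = 0.0203) and of -1.20 ± 0.21 in DU145 (adjusted p = 0.0236). KRT8 was lower with it in DU145 too, by -0.48 ± 0.10 (adjusted p = 0.0479), and the median change of the 5 epithelial markers against scrambled mimic was -0.03 in PC3 and -0.47 in DU145. KRT8 and KRT18 were also lower against untransfected DU145 cells, by -0.41 and -0.33, and KLK2 was higher there, by 0.34 ± 0.097 (adjusted p = 0.0383). EPCAM was lower than in untransfected cells, by -1.05 in PC3 and -1.54 in DU145, and than with miR-452, by -2.02 and -1.27. In PC3 its gap to miR-452 was thus wider than that to either control. Also lower than with miR-452 were KRT8 in DU145 (-0.35) and CDH1 (-0.35), KRT18 (-0.31) and KRT19 (-0.39) in PC3. These marker calls were not recomputed without single arrays. The part of these changes in the members' values was not tested. In bulk RNA, fewer cells that express a gene and less of its RNA per cell cannot be told apart.

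**Figure D1:**
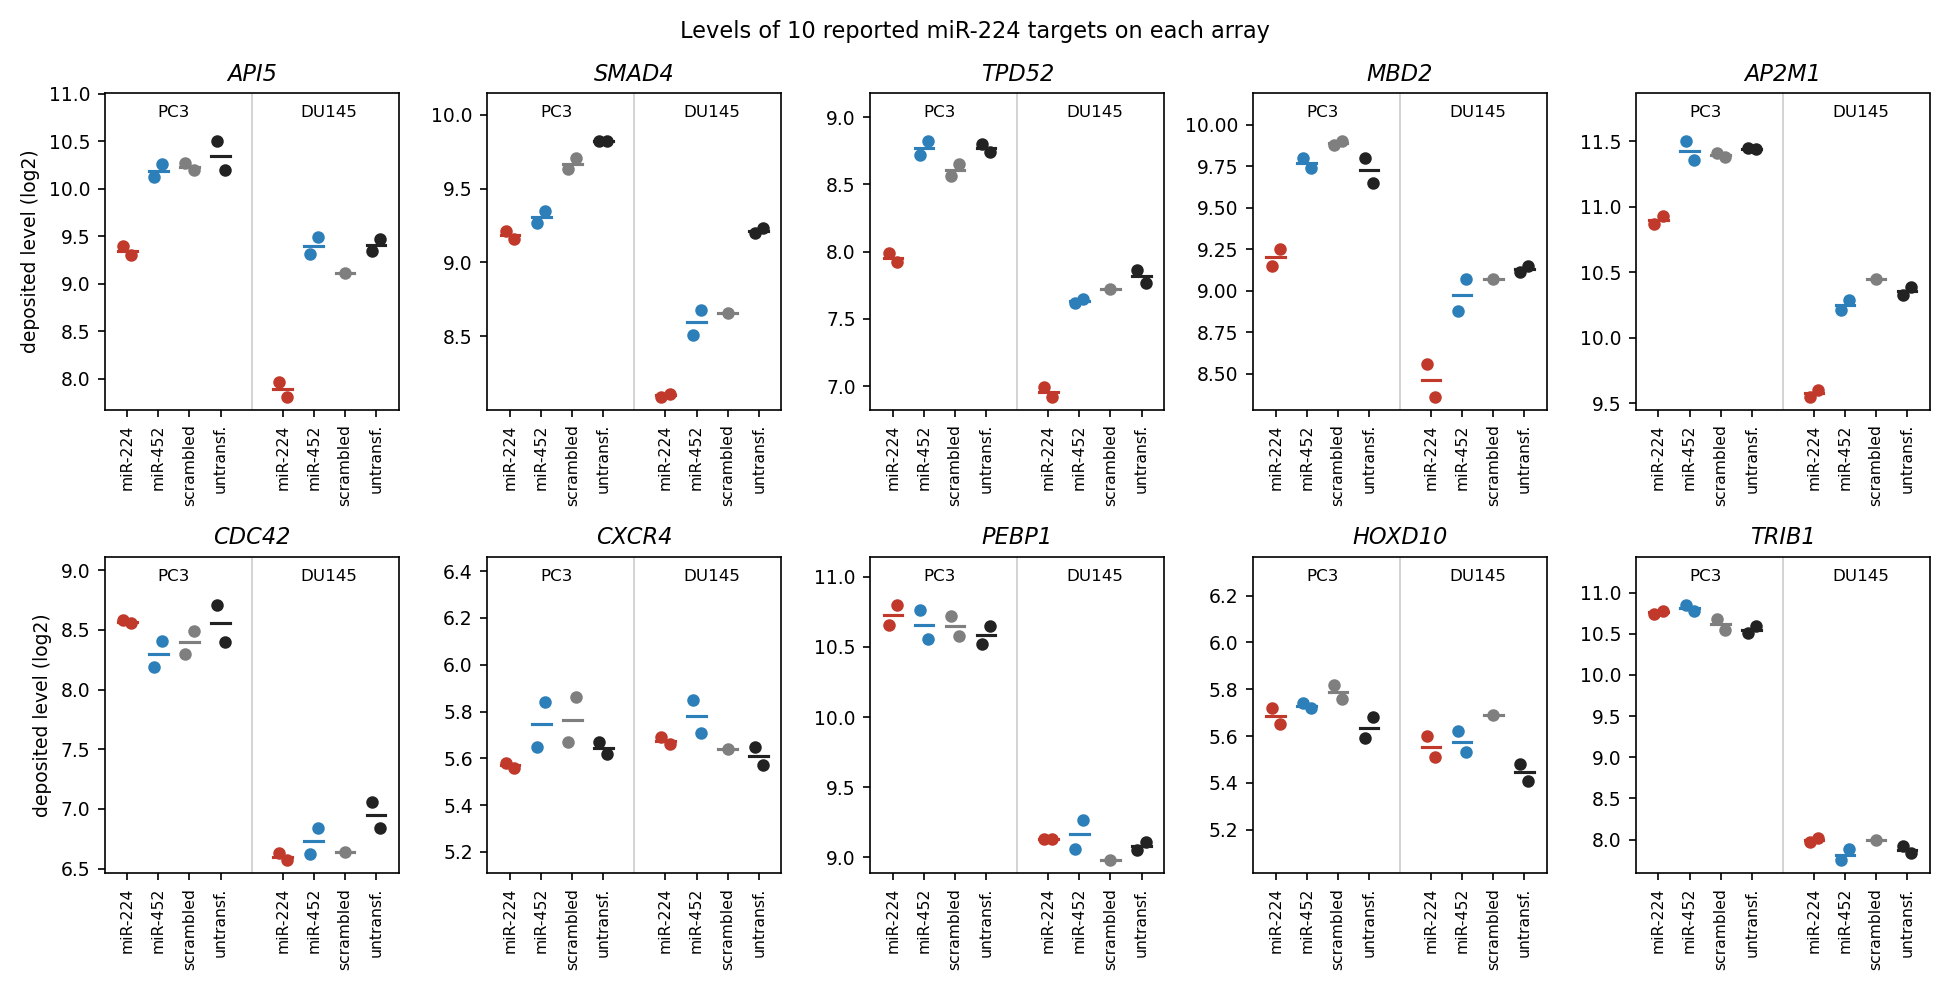
Log2 level (vertical axis) of each of the 10 reported targets on every array (points), by mimic group and cell line (horizontal axis), with bars at group means. The miR-224 arrays of API5, SMAD4, TPD52, MBD2 and AP2M1 lie below every other array of their line, for example API5 at 9.40 and 9.30 in PC3, where the remaining arrays start at 10.12. Those of CXCR4 in PC3 do so too, though CXCR4 passed no test. The share of all genes with such a separation was not analysed here, so the separation alone carries no test.

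The first question was which of the reported targets fell against the scrambled mimic, the control that shares the transfection. In PC3, 5 of the 10 members were lower and 0 were higher at a Benjamini-Hochberg adjusted p under 0.05 over all genes, where 4.65% of all genes were lower and 12.1% higher. In DU145, 5 were lower and 0 higher, where 1.31% of all genes were lower and 0.631% higher. The 5 genes were API5, SMAD4, TPD52, MBD2 and AP2M1 in both lines, and no member was higher at an unadjusted p under 0.05 in either. The median log2 change of the 10 members was -0.34 in PC3 and -0.35 in DU145, beside -0.01 over all genes in each line. Quantile normalization within the line gave the same 5 members in each line, while the share of all calls that were higher moved to 57% from 72.2% in PC3 and to 43% from 32.5% in DU145. The DU145 counts rest on a single scrambled array, and the fit gives that group the spread of the remaining groups of the line.

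Against untransfected cells, 5 members were lower and 0 higher in PC3, where 6.85% of all genes were lower and 2.84% higher. In DU145, 6 were lower and 0 higher, against a background of 15.5% lower and 5.44% higher. The sixth was CDC42, and TRIB1 in PC3 was the 1 member higher at an unadjusted p under 0.05. The members' median log2 change was -0.30 in PC3 and -0.51 in DU145, beside 0.03 and 0.02 over all genes. After quantile normalization the share of all calls that were higher was 43.8% in place of 29.3% in PC3 and 39.2% in place of 26% in DU145, and it was 36.9% in DU145 with each array centred on its median. The untransfected arrays are also the reference for reagent and scrambled mimic. Scrambled mimic alone lowered 10.9% of all genes in PC3 and 9.22% in DU145. By limma it lowered 0 of the 10 members in PC3, also at an unadjusted p under 0.05, and 1 member, SMAD4, in DU145. In a list of 10 genes, counts of 0 and 1 are near the shares over all genes. The single DU145 scrambled array also lay below untransfected cells for API5 (-0.30) and CDC42 (-0.31), and above them for HOXD10 (0.24).

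Against the miR-452 mimic, which asks whether a member moved with miR-224 more than with another microRNA of the same locus, 4 members were lower and 0 higher in PC3, where 5.99% of all genes were lower and 12.5% higher. In DU145, 5 were lower and 0 higher, where 2.38% of all genes were lower and 3.53% higher. SMAD4 was the member that passed in DU145 and not in PC3, and CDC42 in PC3 was the 1 member higher at an unadjusted p under 0.05. The share of PC3 calls that were higher was 67.6% as deposited and 56.7% after quantile normalization. The 3 comparisons of a line share its miR-224 arrays and are not independent of each other.

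**Figure D2:**
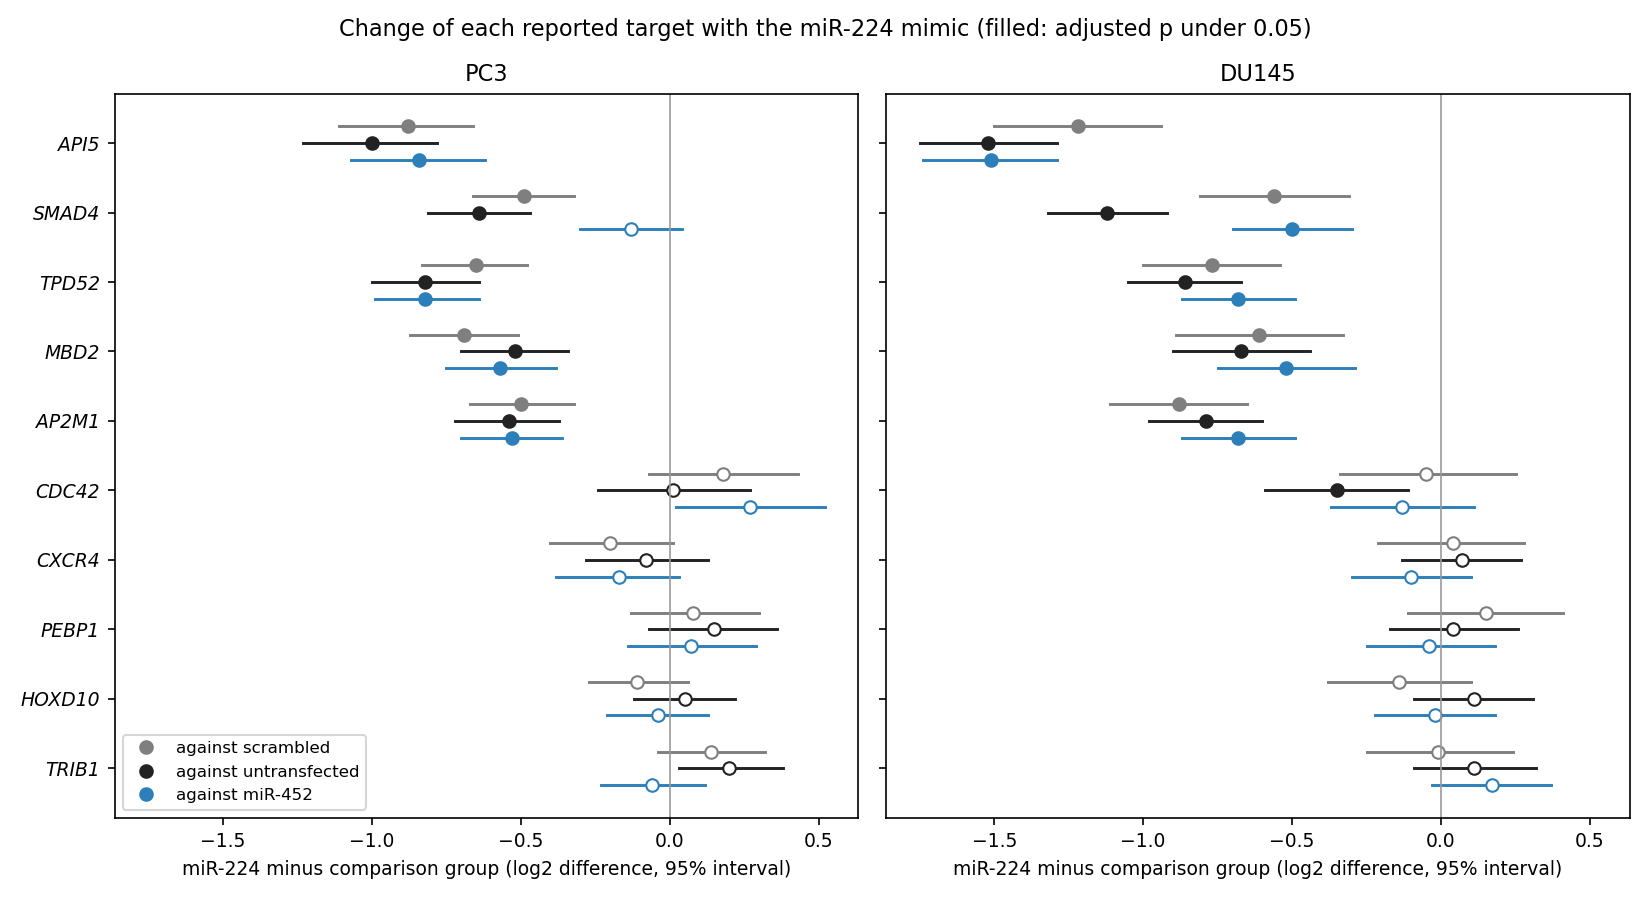
Log2 difference of the miR-224 arrays from scrambled, untransfected and miR-452 arrays (horizontal axis, point and 95% interval from limma) for each reported target (rows), PC3 left and DU145 right. Filled points passed the adjusted test: the 5 upper genes lie left of 0, down to -1.52 for API5 in DU145, and SMAD4 against miR-452 in PC3 is their only open point.

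API5 encodes apoptosis inhibitor 5, a nuclear protein that restrains programmed cell death, and its fall was the largest of the 10 in all 6 comparisons of miR-224. In PC3 its level was 9.40 and 9.30 with miR-224, 10.12 and 10.26 with miR-452, 10.27 and 10.20 with scrambled mimic, and 10.50 and 10.20 in untransfected cells. In DU145 it was 7.97 and 7.81 with miR-224, 9.31 and 9.49 with miR-452, 9.11 with scrambled mimic, and 9.35 and 9.47 in untransfected cells. The miR-224 arrays stood apart from all the others in each line. The remaining groups lay closer together, with the DU145 scrambled array below untransfected cells (-0.30). Relative to scrambled mimic, API5 RNA was 1.84 times lower in PC3 (log2 change -0.88 ± 0.10 SE, adjusted p = 0.000342) and 2.33 times lower in DU145 (-1.22 ± 0.12, adjusted p = 0.00259). Relative to miR-452 it was 1.79 times lower in PC3 and 2.86 times lower in DU145. Ordered from the lowest log2 change, API5 stood 62nd of 18377 genes in PC3 and 9th in DU145 against scrambled mimic, and 3rd in DU145 against untransfected cells.

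SMAD4, the shared SMAD that carries both TGF-beta and BMP signals into the nucleus, fell with miR-224 and also moved in other mimic groups. Its PC3 arrays read 9.21 and 9.16 with miR-224, 9.27 and 9.35 with miR-452, 9.63 and 9.71 with scrambled mimic, and 9.82 on each untransfected array. Its DU145 arrays read 8.09 and 8.11 with miR-224, 8.51 and 8.68 with miR-452, 8.66 with scrambled mimic, and 9.20 and 9.23 in untransfected cells. The miR-224 arrays were lowest in both lines, but miR-452 lay just above them in PC3, and every transfected DU145 array lay below the untransfected ones. Against scrambled mimic the log2 change with miR-224 was -0.49 ± 0.077 in PC3 (adjusted p = 0.00162) and -0.56 ± 0.11 in DU145 (adjusted p = 0.0356). With miR-452 it was -0.36 ± 0.077 in PC3 (adjusted p = 0.0206), where 2.33% of all genes were lower, and -0.06 ± 0.11 in DU145 (adjusted p = 0.896), where 1.52% were. SMAD4 was the 1 member lower with miR-452 than in untransfected cells in each line, at -0.51 in PC3 and -0.62 in DU145, against backgrounds of 14.1% and 19.9%. Scrambled mimic itself was lower than untransfected cells in DU145, by -0.56 ± 0.11 (adjusted p = 0.0208), a call that ended without either untransfected array. The miR-452 call in PC3 ended without scrambled array c or without either miR-452 array. miR-224 and miR-452 differed for SMAD4 by -0.50 ± 0.09 in DU145 (adjusted p = 0.0124) and by -0.13 in PC3, with a 95% interval from -0.30 to 0.04 (adjusted p = 0.282).

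MBD2 encodes a protein that binds methylated CpG sites and brings the NuRD repressor complex to them. The PC3 level of MBD2 was 9.15 and 9.25 with miR-224, 9.80 and 9.74 with miR-452, 9.88 and 9.90 with scrambled mimic, and 9.80 and 9.65 in untransfected cells. The DU145 level of MBD2 was 8.56 and 8.36 with miR-224, 8.88 and 9.07 with miR-452, 9.07 with scrambled mimic, and 9.11 and 9.15 in untransfected cells. No array of another group reached down to the miR-224 values in either line. Against scrambled mimic MBD2 was 1.61 times lower in PC3 (-0.69 ± 0.083, adjusted p = 0.000376) and 1.52 times lower in DU145 (-0.61 ± 0.13, adjusted p = 0.0454). The DU145 miR-224 arrays differed from each other more for MBD2 than for the other members that fell.

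TPD52 encodes tumor protein D52, a coiled-coil protein of vesicle trafficking that is often overexpressed in prostate cancer. In PC3 its level was 7.99 and 7.92 with miR-224, 8.72 and 8.82 with miR-452, 8.56 and 8.65 with scrambled mimic, and 8.80 and 8.74 in untransfected cells. In DU145 it was 6.99 and 6.92 with miR-224, 7.62 and 7.65 with miR-452, 7.72 with scrambled mimic, and 7.86 and 7.77 in untransfected cells. The groups did not overlap with miR-224 in either line. TPD52 was 1.57 times lower than with scrambled mimic in PC3 (-0.65 ± 0.081, adjusted p = 0.000426) and 1.70 times lower in DU145 (-0.77 ± 0.10, adjusted p = 0.00800). Another feature, which the annotation assigns to MRPS28 and TPD52 together and which was not used for the gene, showed no such separation: in PC3 it read 7.80 and 7.57 with miR-224, against 7.62 and 7.56 with scrambled mimic.

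AP2M1 encodes the mu subunit of AP-2, the adaptor that selects cargo at the plasma membrane for clathrin-coated vesicles. Its PC3 arrays read 10.87 and 10.93 with miR-224, 11.50 and 11.36 with miR-452, 11.41 and 11.38 with scrambled mimic, and 11.45 and 11.44 in untransfected cells. Its DU145 arrays read 9.55 and 9.60 with miR-224, 10.21 and 10.29 with miR-452, 10.45 with scrambled mimic, and 10.33 and 10.39 in untransfected cells. The replicates lay close and miR-224 stood clear of the other groups. AP2M1 was 1.41 times lower than with scrambled mimic in PC3 (-0.50 ± 0.079, adjusted p = 0.00173) and 1.84 times lower in DU145 (-0.88 ± 0.10, adjusted p = 0.00448).

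Against untransfected cells the 5 genes fell by log2 changes of -1.0 (API5), -0.64 (SMAD4), -0.82 (TPD52), -0.52 (MBD2) and -0.54 (AP2M1) in PC3. In DU145 the changes were -1.52, -1.12, -0.86, -0.67 and -0.79 in the same order. The PC3 calls of the 5 genes against scrambled mimic and against untransfected cells, and the DU145 calls against untransfected cells, held in every alternative tried, leaving out each array in turn included. The DU145 calls against scrambled mimic were less firm. SMAD4 and MBD2 lost theirs without either untransfected array or without either miR-224 array, and TPD52 without miR-224 array c, so that the count of 5 was 3, 3, 3 and 2 in those fits. API5 held its DU145 call in 15 of 15 alternatives and AP2M1 in 14 of 15. Against miR-452 in DU145, SMAD4 lost its call without miR-224 array a or c and MBD2 without array c.

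CDC42, a small GTPase that organises actin and cell polarity, gave a mixed picture. The PC3 level of CDC42 was 8.58 and 8.56 with miR-224, 8.19 and 8.41 with miR-452, 8.30 and 8.49 with scrambled mimic, and 8.71 and 8.40 in untransfected cells. The DU145 level of CDC42 was 6.63 and 6.57 with miR-224, 6.62 and 6.84 with miR-452, 6.64 with scrambled mimic, and 7.06 and 6.84 in untransfected cells. In PC3 the miR-224 arrays lay within the untransfected range, and in DU145 they lay beside the scrambled array. The DU145 change against untransfected cells was -0.35 ± 0.11 (adjusted p = 0.0457). It ended without either miR-224 array or either untransfected array, and it passed in 6 of 15 alternatives. Scrambled mimic and miR-452 were also below untransfected cells there, by -0.31 and -0.22 (adjusted p = 0.14 and 0.139). The PC3 change against scrambled mimic was 0.18, with a 95% interval from -0.07 to 0.43.

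PEBP1, a phosphatidylethanolamine-binding protein, dampens ERK signalling, and it was well expressed without a fall. In PC3 its level was 10.66 and 10.80 with miR-224, 10.76 and 10.56 with miR-452, 10.72 and 10.58 with scrambled mimic, and 10.52 and 10.65 in untransfected cells. In DU145 it was 9.13 on each miR-224 array, 9.06 and 9.27 with miR-452, 8.98 with scrambled mimic, and 9.05 and 9.11 in untransfected cells. In PC3 the miR-224 arrays overlapped those of scrambled mimic and miR-452 and lay just above the untransfected ones, and in DU145 miR-224 lay above the controls and within the miR-452 range. The 95% interval of the log2 change against scrambled mimic ran from -0.13 to 0.30 in PC3 and from -0.11 to 0.41 in DU145, so a fall of the size seen for API5 lies outside both.

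TRIB1 is a pseudokinase that brings substrates such as C/EBP-alpha to the ubiquitin ligase COP1. Its PC3 arrays read 10.74 and 10.78 with miR-224, 10.85 and 10.78 with miR-452, 10.68 and 10.55 with scrambled mimic, and 10.51 and 10.59 in untransfected cells. Its DU145 arrays read 7.97 and 8.02 with miR-224, 7.75 and 7.89 with miR-452, 8.0 with scrambled mimic, and 7.92 and 7.84 in untransfected cells. In PC3 the miR-224 arrays were above both controls, and in DU145 they lay around the scrambled array. The PC3 change did not pass. It was 0.14 ± 0.081 against scrambled mimic (adjusted p = 0.291) and 0.20 ± 0.081 against untransfected cells (adjusted p = 0.146). With miR-452, TRIB1 was higher than in untransfected PC3 cells, by 0.26 ± 0.081 (adjusted p = 0.0391), where 8.12% of all genes were higher. In DU145 the change against scrambled mimic was -0.01, with a 95% interval from -0.25 to 0.24.

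CXCR4, the receptor for the chemokine CXCL12 that guides cells to bone marrow, and HOXD10, a homeobox transcription factor, were low on all arrays, untransfected ones included. CXCR4 read 5.58 and 5.56 with miR-224 in PC3 and 5.65 and 5.84 with miR-452, against 5.67 and 5.86 with scrambled mimic and 5.67 and 5.62 in untransfected cells. In DU145 it read 5.69 and 5.66 with miR-224 and 5.85 and 5.71 with miR-452, against 5.64 with scrambled mimic and 5.65 and 5.57 in untransfected cells. The PC3 miR-224 arrays were the lowest of the line by a margin smaller than the gap between the scrambled arrays, and those of DU145 were not lowest. HOXD10 read 5.72 and 5.65 with miR-224 in PC3 and 5.74 and 5.72 with miR-452, against 5.82 and 5.76 with scrambled mimic and 5.59 and 5.68 in untransfected cells. In DU145 it read 5.60 and 5.51 with miR-224 and 5.62 and 5.53 with miR-452, against 5.69 with scrambled mimic and 5.48 and 5.41 in untransfected cells. For HOXD10 the miR-224 arrays lay below scrambled mimic in both lines and were not below untransfected cells. Mean levels were 5.68 for CXCR4 in each line and 5.71 and 5.55 for HOXD10 in PC3 and DU145. They lay under the levels of 6.08 and 5.79 that mark percentile 20 of all genes in the line, which leaves little room for a fall. The change of CXCR4 against scrambled mimic was -0.20 ± 0.093 in PC3 (adjusted p = 0.194) and 0.04 ± 0.11 in DU145 (adjusted p = 0.981). For HOXD10 it was -0.11 ± 0.077 in PC3 (adjusted p = 0.431) and -0.14 ± 0.11 in DU145 (adjusted p = 0.735). The 95% interval against scrambled mimic ran from -0.40 to 0.01 for CXCR4 and from -0.27 to 0.06 for HOXD10 in PC3, and from -0.21 to 0.28 and from -0.38 to 0.10 in DU145.

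**Figure D3:**
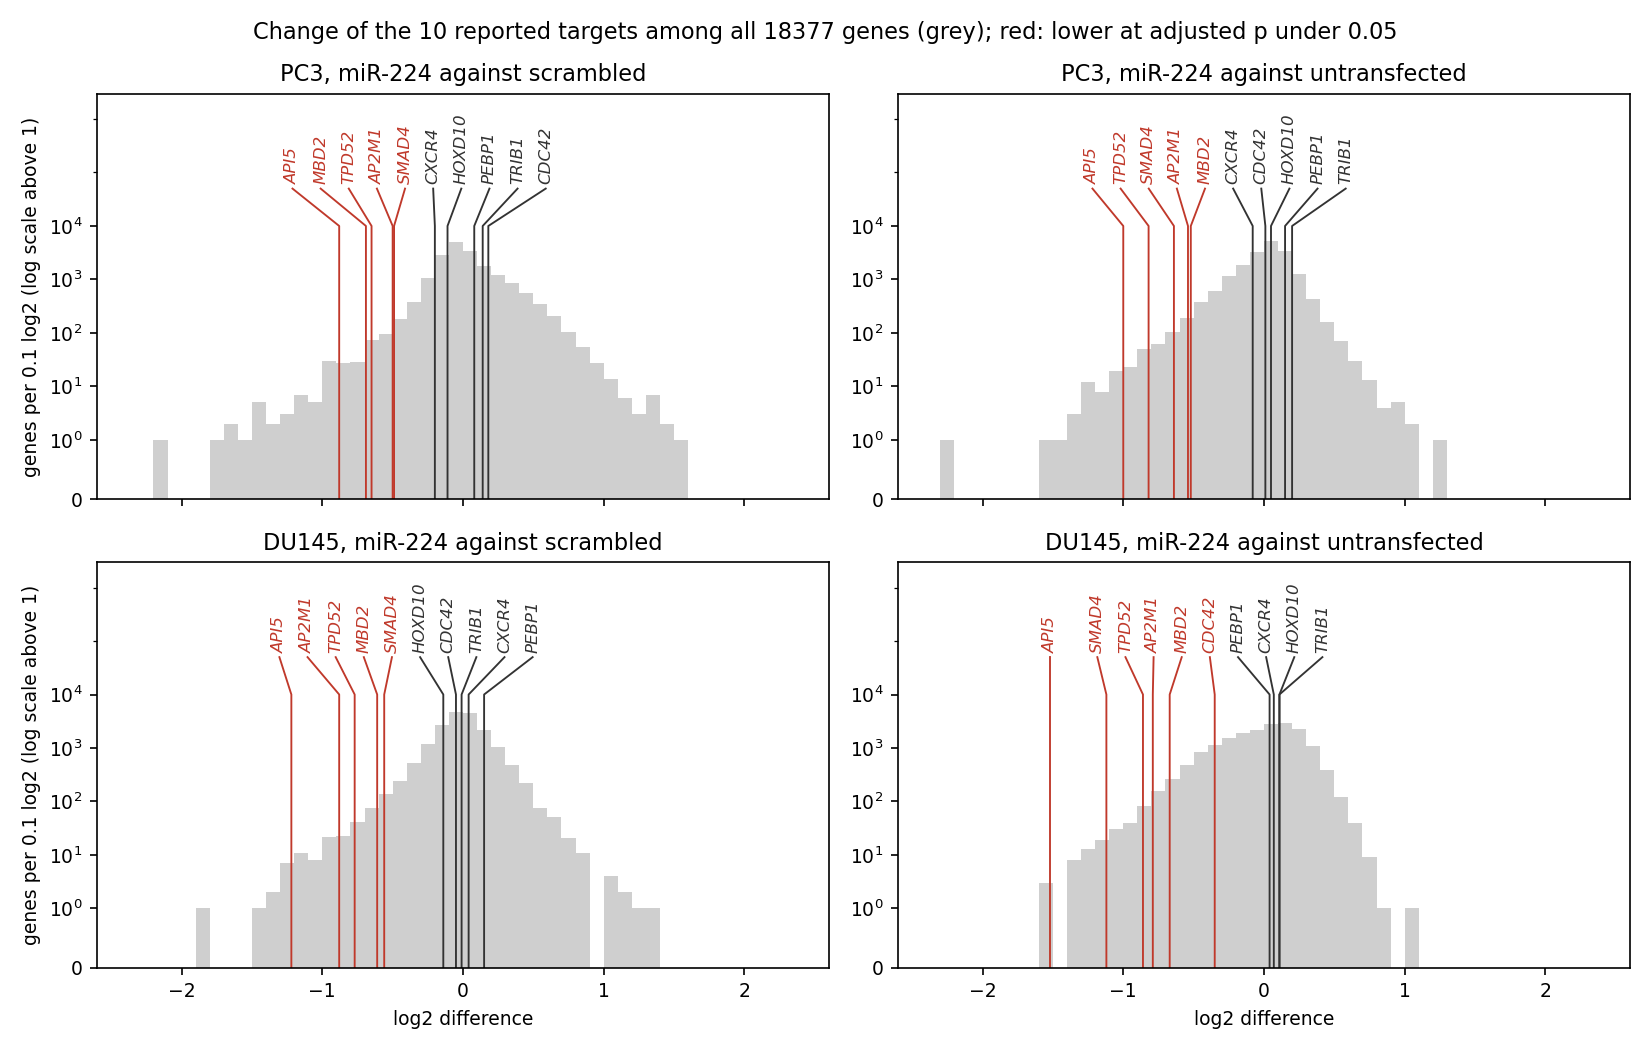
Number of genes (vertical axis, log scale above 1) by log2 difference of miR-224 from scrambled mimic (left) and from untransfected cells (right), in PC3 (top) and DU145 (bottom), with the 10 reported targets as lines. Of the genes that passed as lower (red), CDC42 ranks 2428th in DU145 against untransfected cells and the rest lie in the left tail, where API5 ranks 62nd, 45th, 9th and 3rd of 18377, and the others (black) lie among the bulk of genes.

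Whether a member responded differently in the 2 lines was tested as the change in PC3 minus the change in DU145. Against scrambled mimic 0 of 10 members differed in the limma fit at an adjusted p under 0.05, where 1.15% of all genes did, and 1 member, AP2M1, had an unadjusted p under 0.05. Its difference was 0.38 ± 0.12 (unadjusted p = 0.00672, adjusted p = 0.159), and the 95% interval for API5 ran from -0.02 to 0.70. Against untransfected cells 1 member differed, SMAD4, by 0.48 ± 0.11 (adjusted p = 0.0259), where 5.13% of all genes did: its fall was -0.64 in PC3 and -1.12 in DU145. Scrambled mimic alone changed SMAD4 by -0.15 in PC3 and by -0.56 in DU145, and the difference for SMAD4 against scrambled mimic was 0.07. Against miR-452 1 member differed, API5, by 0.67 ± 0.15 (adjusted p = 0.0189), where 5.71% did: its fall was -0.84 in PC3 and -1.51 in DU145. The SMAD4 count became 0 without untransfected array c or either miR-224 array of PC3, or without any 1 of the untransfected and miR-224 arrays of DU145, and became 2 with API5 added without PC3 untransfected array b or either DU145 miR-452 array. The API5 count became 0 without either PC3 miR-224 array, PC3 miR-452 array b, DU145 miR-224 array c or DU145 miR-452 array c, and 2 with SMAD4 added without DU145 miR-452 array a.

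The members' relatives and binding partners were followed as a list of 87 genes, of which 80 were measured. Against scrambled mimic 4 were lower and 14 higher in PC3, and 2 were lower and 1 higher in DU145. Against untransfected cells 4 were lower and 2 higher in PC3, and 12 were lower and 3 higher in DU145. The list's median log2 change was 0.00 and 0.00 in PC3 and -0.03 and -0.03 in DU145, beside -0.01, 0.03, -0.01 and 0.02 over all genes. Against scrambled mimic 5% of the list was lower and 17.5% higher in PC3, beside 4.65% and 12.1% of all genes, and 2.5% was lower and 1.25% higher in DU145, beside 1.31% and 0.631%. Against untransfected cells the shares were 5% lower and 2.5% higher in PC3, beside 6.85% and 2.84% of all genes, and 15% lower and 3.75% higher in DU145, beside 15.5% and 5.44%. The counts moved widely with the processing, for example between 2 and 20 for the genes higher in PC3 against scrambled mimic.

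The partner with the clearest change was CLTB, clathrin light chain B, which builds the same coated vesicles as AP2M1. The PC3 level of CLTB was 9.44 and 9.38 with miR-224, 10.64 and 10.63 with miR-452, 10.58 and 10.44 with scrambled mimic, and 10.46 and 10.67 in untransfected cells. The DU145 level of CLTB was 8.02 and 7.90 with miR-224, 8.58 and 8.69 with miR-452, 9.12 with scrambled mimic, and 8.74 and 8.62 in untransfected cells. The miR-224 arrays were lowest in each line without overlap. CLTB changed by -1.10 ± 0.091 in PC3 (adjusted p = 4.56e-05) and by -1.15 ± 0.11 in DU145 (adjusted p = 0.0022) against scrambled mimic, beside -0.50 and -0.88 for AP2M1. Against untransfected cells it changed by -1.15 in PC3 and -0.72 in DU145, beside -0.54 and -0.79 for AP2M1. Against miR-452 the changes were -1.22 and -0.67, beside -0.53 and -0.68. The single DU145 scrambled array read above the untransfected ones for CLTB (0.44, adjusted p = 0.0403), a call that ended without either untransfected or either miR-224 array. Other parts of the coat, named after their values were seen, went in either direction. In PC3 against scrambled mimic the clathrin heavy chain CLTC was higher (0.38 ± 0.077, adjusted p = 0.00679), as was the beta subunit AP2B1 (0.30 ± 0.078, adjusted p = 0.0231), while the sigma subunit AP2S1 was lower (-0.26 ± 0.081, adjusted p = 0.0471). Against untransfected PC3 cells 2 of the 11 measured partners of AP2M1 were lower and 0 higher, with changes up to 0.25. Of all genes, 6.85% were lower and 2.84% higher there. In DU145 against scrambled mimic CLTB was the only 1 of the 11 measured partners of AP2M1 that passed. AP2B1 was higher than with miR-452 in both lines, by 0.36 in PC3 and 0.34 in DU145. miR-452 itself was below untransfected cells for AP2B1, by -0.25 in PC3 (adjusted p = 0.0408) and -0.37 in DU145 (adjusted p = 0.0126), while the change with miR-224 was 0.11 and -0.03. Its PC3 call against scrambled mimic ended without either scrambled or either miR-224 array. Its call against miR-452 ended without miR-224 array a or miR-452 array c in PC3, and without either untransfected array, either miR-224 array or miR-452 array a in DU145.

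Among the 12 measured partners of SMAD4, SMAD5, a SMAD of the BMP branch, was lower with miR-224 in DU145. Its level there was 8.08 and 7.97 with miR-224, 8.63 and 8.72 with miR-452, 8.57 with scrambled mimic, and 9.05 and 9.16 in untransfected cells. The miR-224 arrays were lowest, and all transfected arrays lay below the untransfected ones, as for SMAD4. The change was -0.55 ± 0.11 against scrambled mimic (adjusted p = 0.0416), a call that ended without either untransfected or either miR-224 array, and -1.08 ± 0.091 against untransfected cells. In PC3 SMAD5 read 8.96 and 9.04 with miR-224 and 8.97 and 9.05 with scrambled mimic, values that overlap, and its change against untransfected cells was -0.40 ± 0.089 (adjusted p = 0.0164), which ended without untransfected array b or either miR-224 array. TGFBR2, the type II receptor for TGF-beta, was higher than in untransfected cells in both lines, by 0.32 in PC3 and 0.57 in DU145, and did not pass against scrambled mimic in either. The TGFBR2 call ended in PC3 without either untransfected or either miR-224 array, and in DU145 without untransfected array c. SMAD2, which transmits the TGF-beta signal with SMAD4, was higher with miR-224 than with miR-452, by 0.97 in PC3 and 0.59 in DU145. Its levels in PC3 were 8.89 and 8.85 with miR-224, 7.94 and 7.84 with miR-452, and 8.76 and 8.74 with scrambled mimic, so that miR-452 was the group that stood apart. The DU145 call for SMAD2 ended without either miR-224 array.

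**Figure D4:**
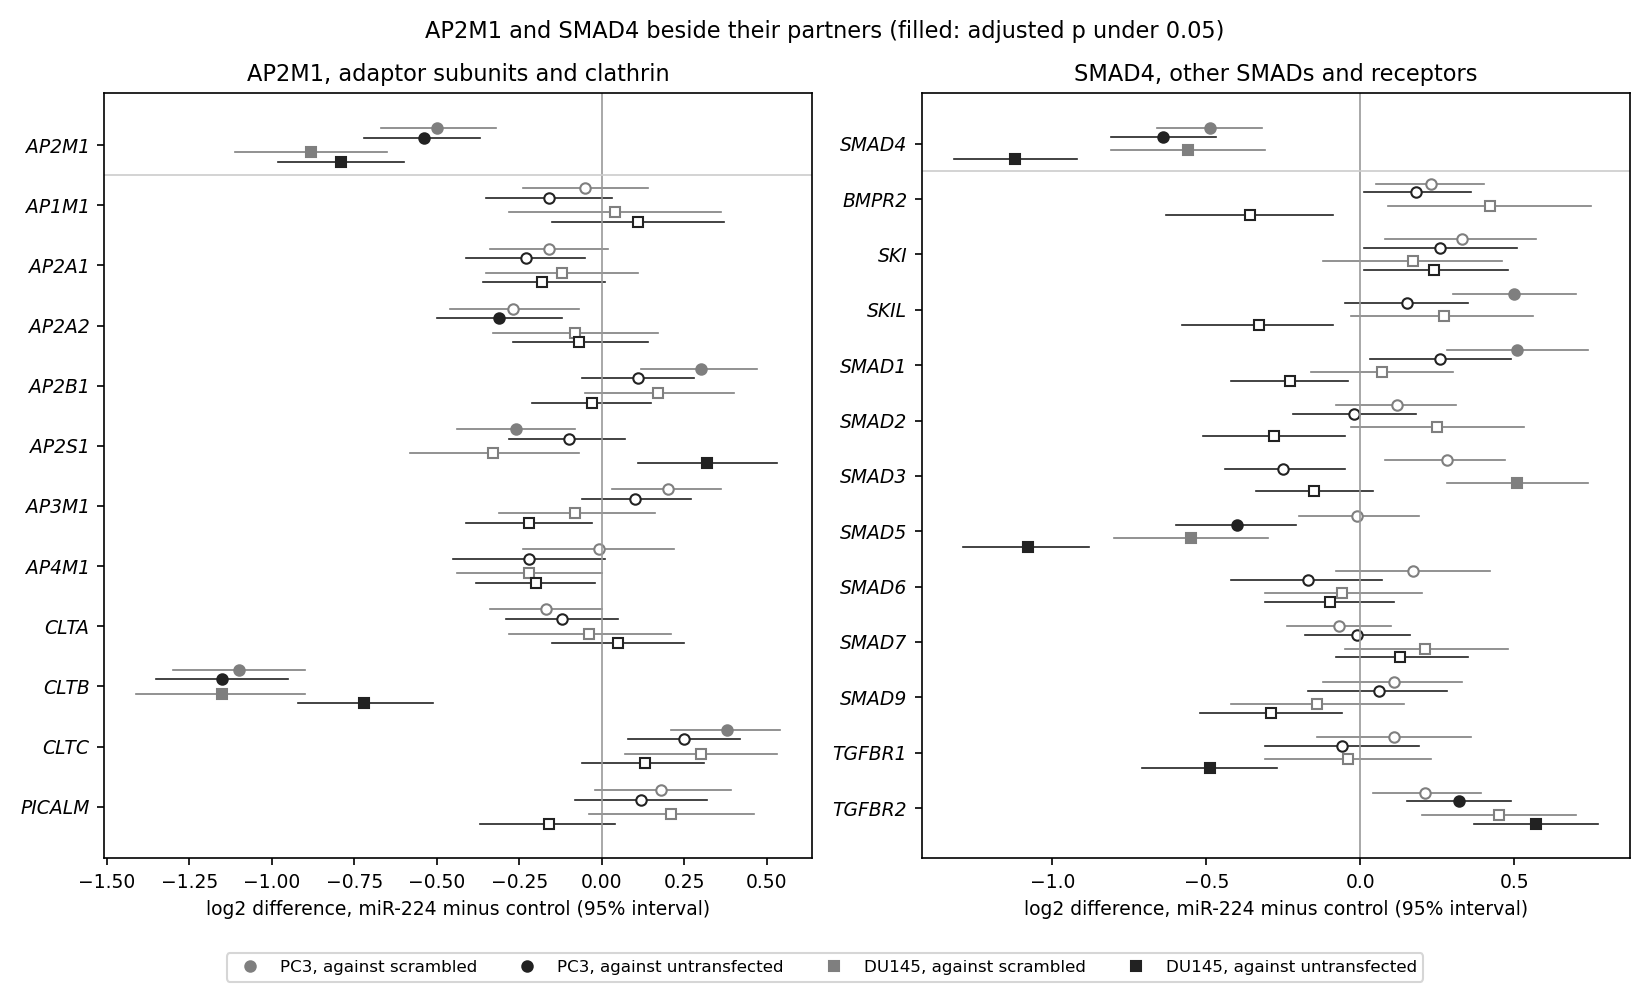
Log2 difference of miR-224 from scrambled mimic (grey) and untransfected cells (black), with 95% intervals (horizontal axis), for AP2M1 and SMAD4 (top row) and their measured partners (rows below), in PC3 (circles) and DU145 (squares). CLTB lies between -0.72 and -1.15, AP2M1 between -0.50 and -0.88, and SMAD5 reaches -1.08 in DU145.

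Relatives of TPD52 and MBD2 were also counted. Of all genes, 4.65% were lower and 12.1% higher against scrambled mimic in PC3, and 1.31% and 0.631% in DU145. In lists of 5 and 11 genes a count of 0 lower is near these shares. Of the 5 measured relatives and partners of TPD52, which include TPD52L1 and TPD52L2 of the same protein family, 0 passed against scrambled mimic in either line in the limma fit (0 in PC3 and 1 in DU145 at an unadjusted p under 0.05), with log2 changes from -0.15 to 0.11 in PC3 and from -0.37 to -0.03 in DU145. In DU145 1 of these 5, MAL2, named after its values were seen, was lower against untransfected cells (-0.39) and against miR-452 (-0.42). Of all genes, 15.5% and 2.38% were lower in those comparisons. In PC3 TPD52L1 was lower against miR-452 (-0.56), where 5.99% of all genes were lower. Of the 11 measured for MBD2, 0 were lower against scrambled mimic in either line in the limma fit, also at an unadjusted p under 0.05, and 3 (HDAC2, MBD4 and RBBP4) were lower in DU145 against untransfected cells, which is 27.3% beside 15.5% of all genes. Also named after their values were seen, CHD4, the ATPase of NuRD, was higher in PC3 than with scrambled mimic, by 0.45 ± 0.10 (adjusted p = 0.0108). GATAD2B (0.31) and MBD4 (0.34) were higher there too, which makes 27.3% of the 11 beside 12.1% of all genes. Against untransfected PC3 cells 0 of the 11 were higher, with changes up to 0.13. Scrambled mimic alone lowered 18.2% of the 11 in each line, beside 10.9% of all genes in PC3 and 9.22% in DU145. In DU145 miR-452 lowered 45.5% of the 11 against untransfected cells, beside 19.9% of all genes. AATF, an antagonist of apoptosis listed with API5, was lower than with miR-452 in both lines, by -0.41 in PC3 and -0.60 in DU145. Against scrambled mimic it did not pass, at -0.17 in PC3 (adjusted p = 0.317) and -0.51 in DU145 (adjusted p = 0.0516, and 0.0154 without either miR-452 array). Against untransfected DU145 cells it was lower by -0.47 (adjusted p = 0.00778), a call that ended without either untransfected array or miR-224 array c. The call against miR-452 ended without miR-224 array a or miR-452 array b in PC3 and without miR-224 array c in DU145. Around CDC42, whose own level passed in only 1 comparison, PARD6B, a polarity protein that binds it, was higher with miR-224 in PC3. Its level was 8.73 and 8.83 with miR-224, 8.50 and 8.35 with miR-452, 8.07 and 8.02 with scrambled mimic, and 8.20 and 8.14 in untransfected cells. The change was 0.74 ± 0.084 against scrambled mimic (adjusted p = 0.000303) and held without each array in turn. In DU145 it was 0.18 against scrambled mimic, which did not pass, and 0.28 against untransfected cells (adjusted p = 0.0412), which ended without either miR-224 or either untransfected array. The kinase PAK2, an effector of CDC42, was lower than in untransfected cells in both lines, by -0.46 in PC3 and -0.93 in DU145. In PC3 scrambled mimic was at like levels (9.49 and 9.60 with miR-224, against 9.46 and 9.31 with scrambled mimic and 10.09 and 9.93 in untransfected cells). In DU145 the miR-224 arrays were lowest, at 8.86 and 8.82, against 9.06 with scrambled mimic (a change of -0.23), 9.01 and 9.10 with miR-452, and 9.81 and 9.71 in untransfected cells. The PC3 call for PAK2 ended without untransfected array b or miR-224 array a.

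A list of 25 further genes reported as miR-224 targets, of which 21 were measured, gave 2 lower and 2 higher in PC3 and 1 lower and 0 higher in DU145 against scrambled mimic. The lower genes were 9.52% of the list in PC3 and 4.76% in DU145, beside 4.65% and 1.31% of all genes, and the higher ones 9.52% in PC3, beside 12.1%. Against untransfected cells it gave 2 lower and 1 higher in PC3, and 8 lower and 0 higher in DU145. The lower genes were then 9.52% of the list in PC3 and 38.1% in DU145, beside 6.85% and 15.5% of all genes, and the higher one in PC3 was 4.76%, beside 2.84%. Scrambled mimic alone lowered 23.8% of the list in PC3 and 14.3% in DU145, beside 10.9% and 9.22% of all genes. In each line 1 of the 21 was lower against both controls. In PC3 it was PTX3, a soluble pattern recognition protein, with 7.55 and 7.65 with miR-224, 7.41 and 7.40 with miR-452, 8.03 and 7.86 with scrambled mimic, and 8.56 and 8.45 in untransfected cells. The lowest PTX3 values were thus those of miR-452, and the call against scrambled mimic (-0.35, against -0.91 for untransfected cells) ended without scrambled array b or either miR-224 array. In DU145 it was SLC4A4, a sodium bicarbonate cotransporter, with 8.62 and 8.60 with miR-224, 9.15 and 9.37 with miR-452, 9.36 with scrambled mimic, and 9.62 and 9.50 in untransfected cells. The SLC4A4 change was -0.76 against scrambled mimic, a call that ended without either miR-224 array, and -0.95 against untransfected cells.

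The pattern of each member over the 15 arrays, with each line set to its own mean, was also compared with that of all other genes. The 5 members that fell had Pearson r from 0.78 to 0.95 between any pair of them. They were grouped because each fell on these same miR-224 arrays, so high r between them follows from that choice. The genes most like each of them were IPO7 and NUS1 for API5 (r = 0.99 and 0.987), TMEM230 and SCOC for SMAD4 (0.961 and 0.951), UBE2J1 and PRDX3 for TPD52 (0.99 and 0.983), LAPTM4A and ATP6V0E1 for MBD2 (0.983 and 0.968), and C5orf15 and NDUFA8 for AP2M1 (0.98 and 0.979). For the other members the closest genes were TTLL7 for CDC42 (0.937), PROKR2 for CXCR4 (0.906), PCSK6 for PEBP1 (0.85), TRPV3 for HOXD10 (0.941) and MMP14 for TRIB1 (0.911). These values describe 15 arrays that share 4 conditions and are the highest among all genes, so they carry no test. GABRE, the host gene of the miR-224 locus, read 5.67 to 5.90 in PC3 and 5.33 to 5.63 in DU145.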

How the data were processed

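The authors deposited log2 levels, made by RMA16 in GeneSpring GX 11.0, the arrays of PC3 and DU145 normalized separately, per the series' design text. RMA16 is thought to add 16 before the logarithm, which no source used here states, and would understate changes of weakly expressed genes. RNA was extracted with the RNeasy kit 48 h after transfection, per the labels' protocols. Genome build and probe set definition are not given in the sources used here.

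Of 28869 features, 19310 carried 1 gene symbol, 1752 several and 7807 none. Symbols were updated through RefSeq (19279 matched), and features of a symbol were averaged into 18377 genes, without a filter on level. limma 3.58.1 in R 4.3.3 fitted 4 group means per line, and all 15 arrays for differences between lines. Residual degrees of freedom were 4 in PC3, 3 in DU145 and 7 together. Tests were two-sided, with Benjamini-Hochberg adjustment over all genes and calls at an adjusted p under 0.05. The script was tested on simulated data. The number of arrays limits the precision.

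The members and lists were chosen with earlier results of these data known. All members were named, as were listed genes that passed against both controls in a line or partners that passed in both lines, the 2 genes closest to each member by Pearson r, and the host gene. Listed genes without a feature of their own symbol (7 relatives or partners and 4 other targets) were not analysed here. Sequences are from RefSeq (GRCh38.p14).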

Additional observations from a re-analysis of the deposited data

Results flagged for a closer look

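Differences between the lines in the response to miR-224, as the log2 change in PC3 minus that in DU145, passed limma's test for 2 members and 7 of the partners and further reported targets named. Those 7 come from genes named for passing tests of miR-224, so their count is no share of the lists. Of all genes, 1.15% differed against scrambled mimic, 5.13% against untransfected cells and 5.71% against miR-452. Of the 80 measured relatives and partners, the difference was positive for 1.25%, 6.25% and 1.25%, and negative for 0%, 0% and 5%, in that order. Against scrambled mimic, PARD6B differed by 0.56 ± 0.13 (adjusted p = 0.0471), with a rise of 0.74 in PC3 and a change of 0.18 in DU145. Against untransfected cells, SMAD4 differed by 0.48 ± 0.11 (adjusted p = 0.0259), SMAD5 by 0.68 ± 0.13 (adjusted p = 0.00885), PAK2 by 0.46 ± 0.12 (adjusted p = 0.0436) and SLC4A4 by 0.69 ± 0.15 (adjusted p = 0.0182), each with the lower change in DU145. The same differences against scrambled mimic were 0.07 for SMAD4, 0.54 for SMAD5, 0.39 for PAK2 and 0.27 for SLC4A4. Scrambled mimic alone changed SMAD4 by -0.15 in PC3 and by -0.56 in DU145. PTX3 differed against untransfected cells by -0.93 ± 0.13 (adjusted p = 0.00301), with a fall of -0.91 in PC3. Its DU145 arrays read 5.45 and 5.37 with miR-224 and 5.43 and 5.35 in untransfected cells, which overlap. All DU145 arrays read PTX3 between 5.35 and 5.75, under the low-level mark of 5.79 given above for that line. These levels leave little room for a fall in DU145. In PC3, scrambled mimic alone changed PTX3 by -0.56 (adjusted p = 0.00432 by limma). The difference between the lines for PTX3 against scrambled mimic was -0.19. Against miR-452, API5 differed by 0.67 ± 0.15 (adjusted p = 0.0189) and SMAD5 by 0.49 ± 0.13 (adjusted p = 0.0347), each with the lower change in DU145. CLTB differed by -0.55 ± 0.13 (adjusted p = 0.0238), with the larger fall in PC3, and TGFBR2 by -0.47 ± 0.11 (adjusted p = 0.0274), with changes of -0.20 in PC3 and 0.27 in DU145. With miR-452, TGFBR2 was itself above scrambled mimic, by 0.42 in PC3 (adjusted p = 0.0102) and by 0.18 in DU145. With 1 array left out at a time, PTX3 kept its call against untransfected cells throughout, with the low DU145 levels given above. Every other call here was lost in some of the fits. The calls for SMAD4 and API5 were lost without the arrays named above. PARD6B lost its call without any 1 of the PC3 arrays, the DU145 untransfected arrays or the DU145 miR-224 arrays. PAK2 lost it without PC3 untransfected array c, either miR-224 or miR-452 array of PC3, or either untransfected or miR-224 array of DU145. SLC4A4 lost it without PC3 untransfected array c, PC3 miR-224 array b, DU145 untransfected array b or DU145 miR-224 array c. SMAD5 lost it against untransfected cells without PC3 untransfected array c, PC3 miR-224 array b, DU145 untransfected array c or DU145 miR-224 array c. Against miR-452, SMAD5 lost it without any PC3 miR-224 or miR-452 array, either DU145 untransfected array, or array c of DU145 miR-224 or miR-452. CLTB and TGFBR2 lost it without PC3 miR-224 array b, either PC3 miR-452 array or DU145 miR-224 array a, and TGFBR2 also without DU145 miR-224 array c. Groups of 2 arrays are too small for a check of single outlying arrays.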

How the results depend on the processing

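Of 2024 values of members under the alternatives, 1961 kept their side of the threshold, 55 lost a call, 8 gained one and 0 called values turned sign. The 1961 include 64 values that turned sign without a call in either setting. For DU145 miR-224 against scrambled mimic the 5 lower members became 3 with each feature on its own, 3 with arrays centred on their median, 1 with the replicate letters as a block and 2 with the block crossed for DU145 miR-452, an alternative added after the data were seen. Leaving out 1 array at a time gave 2 to 5. Quantile normalization made TRIB1 the 1 member higher in DU145 against untransfected cells, in place of 0. Without 1 array the DU145 count against miR-452 ran from 3 to 5, the PC3 miR-452 count against scrambled mimic from 0 to 1, and the DU145 scrambled count against untransfected cells from 0 to 1, the last also 0 with each feature on its own and 0 with the block. Members differing between lines against untransfected cells numbered 1, but 2 without genes under percentile 20, 0 after quantile normalization, 2 with trend and robust moderation, 0 with the block and 0 to 2 without 1 array. Against miR-452 the count of 1 was 0 with the block and 0 to 2 without 1 array. The replicate letters did not pair the arrays, as deviations of same-letter arrays correlated at -0.15 to 0.27 in PC3 and -0.31 to 0.05 in DU145. The cause of these changes was not tested.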
